A study of Mus musculus with 3 samples.

Results

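The transcripts described here encode the 3 E proteins, Tcf4, Tcf12 and Tcf3, and the 4 ID inhibitors, Id1, Id2, Id3 and Id4. The 7 genes were chosen by name from the 19744 genes of the count tables, and all 7 were present. E proteins are helix-loop-helix transcription factors that pair with each other or with lineage factors such as Atoh1 and Neurod1 and bind DNA at the E-box. ID proteins carry the helix-loop-helix but lack the DNA-binding region, so they hold E proteins in pairs that cannot bind DNA, and they are known targets of BMP signalling and are linked with progenitor and glial states. In cerebellar granule neuron progenitors, E proteins are the partners through which the lineage factor Atoh1 works.

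The mRNA was counted by Drop-seq, a droplet method that tags each molecule at its 3′ end, in medulloblastomas of 3 G-Smo mice on a C57BL/6 background. In the hGFAP-Cre/SmoM2 genotype, a Cre recombinase under the human GFAP promoter turns on SmoM2, a constitutively active Smo that drives Hedgehog signalling, in neural stem cells and the lineages they give. Each mouse had been given palbociclib, which blocks the kinases CDK4 and CDK6, in a polyoxazoline nanoparticle (POx-palbo) by 5 daily intraperitoneal injections of 25 mg/kg from postnatal day 10, and tumours were taken on postnatal day 16. All 3 tumours form this 1 group. Untreated tumours are not analysed here, so every comparison lies between sets of barcodes of the same tumours, and no value below is an effect of the drug.

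The tables held from 2330 to 9802 barcodes and from 248617 to 1324350 counts per tumour, with a median of 84 to 105 counts per barcode. Of 20959 barcodes, 2267 held at least 200 counts (1060, 148 and 1059 in tumours 1, 2 and 3), and these were the barcodes divided below. Libraries shared 3 to 8 barcode sequences per pair. In barcodes without markers of another cell type, 8 to 10 of 10 progenitor markers and 7 of 8 granule neuron markers had counts in each tumour. Any count over all these barcodes sufficed, so this gives no level and does not settle what the barcodes are. Tumour 2 stood apart in depth and in its share of mitochondrial counts, 11.4% against 3.97% and 5.61% in tumours 1 and 3. In tumour 2, 1 barcode of 3172 counts with astrocyte, endothelial and mural markers held 16.4% of its counts with Neurod1. Results are therefore also given without tumour 2 where that changed them.

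Tcf4, which encodes the E protein E2-2 and not the Wnt pathway factor Tcf7l2, which shares the alias, was the most abundant of the 7 transcripts in every tumour. It was counted at 1521, 1738 and 1375 CPM (counts-per-million of the tumour total) in tumours 1, 2 and 3, a mean of 1545 ± 182 (SD, n = 3). Each count is 1 tagged 3′ end, so these levels were not divided by transcript length. The 3 tumours lay close together relative to the distance to the next gene. Tcf12, which encodes the E protein HEB, stood at 210, 88.5 and 205 CPM, a mean of 168 ± 69.0 (SD, n = 3). Tcf3, which encodes E12 and E47, stood at 136, 76.4 and 134 CPM, a mean of 116 ± 34.1 (SD, n = 3). Both were lowest in tumour 2, and their ranges over tumours overlapped, although Tcf12 was above Tcf3 within each of the 3 tumours.

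**Figure D1:**
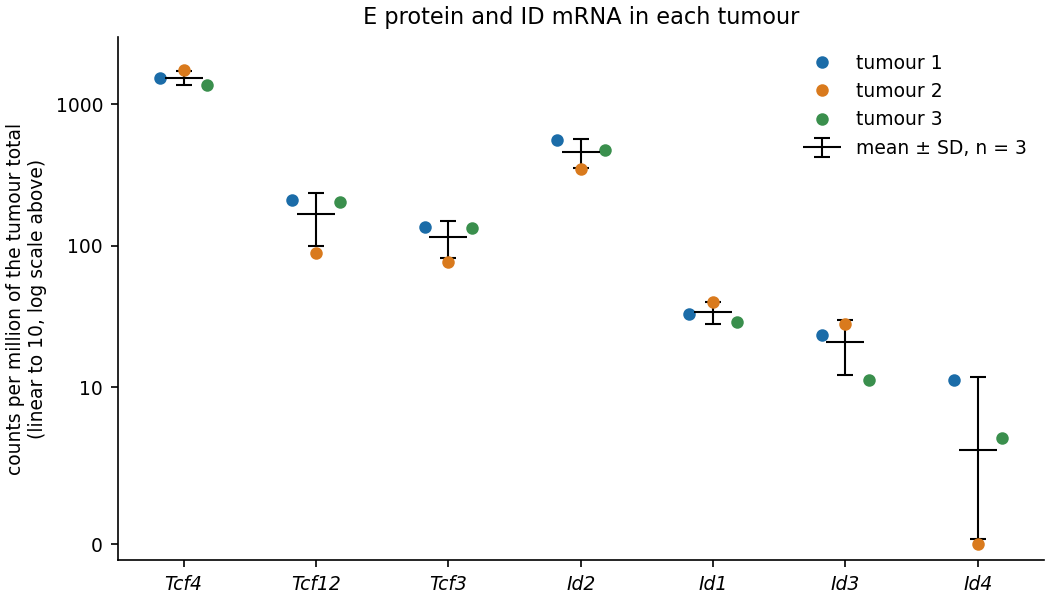
CPM of the tumour total for the 7 genes (points, 1 per tumour; bar, mean ± SD, n = 3), on an axis that is linear to 10 and logarithmic above. Tcf4 lies at 1375 to 1738 and Id2 at 350 to 559, above the other members in every tumour, and Id4 lies between 0 and 11.3.

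Among the ID genes, Id2 was the one counted at a level like that of the E proteins. Id2 stood at 559, 350 and 473 CPM in tumours 1, 2 and 3, a mean of 461 ± 105 (SD, n = 3), which put it second of the 7 genes in each tumour. Id1 followed at 33.0, 40.2 and 28.7 CPM, a mean of 34.0 ± 5.82 (SD, n = 3). Id3 stood at 23.5, 28.2 and 11.3 CPM, a mean of 21.0 ± 8.69 (SD, n = 3). Id1 was above Id3 in each tumour, with counting intervals that overlapped in tumours 1 and 2 and did not in tumour 3, at 20.3 to 39.4 against 6.34 to 18.7 (95% Poisson, counting error only). Id4 had 13, 0 and 9 counts, or 11.3, 0 and 6.80 CPM, and the 0 of tumour 2 allows up to 14.8 CPM (95% Poisson). The Id4 locus overlaps A330033J07Rik on the other strand, and without a stated strand setting their reads may not have been told apart. The counting intervals of Id3 and Id4 overlapped in all 3 tumours. In these totals, fewer cells of a type and less mRNA per cell cannot be told apart. E protein counts exceeded ID counts 2.98-fold (2.74 to 3.25), 4.55-fold (3.67 to 5.68) and 3.30-fold (3.03 to 3.59) in tumours 1, 2 and 3, where Tcf4 and Id2 supplied most of the counts.

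The stretches before the start sites of the ID genes are shown because ID genes are known targets of BMP-activated SMAD factors and may themselves carry the E-box. The 250 bases upstream of the start were taken from RefSeq on GRCm38.p6 for the 3 ID genes in the promoter table used here. They are Id2 at chr12:25096093-25096342 on the minus strand, Id3 at chr4:136143572-136143821 on the plus strand and Id4 at chr13:48260866-48261115 on the plus strand. Capitals mark matches to the E-box CANNTG and to GGCGCC, a GC-rich SMAD1 motif. Both were searched on both strands, on which they read the same.
Id2: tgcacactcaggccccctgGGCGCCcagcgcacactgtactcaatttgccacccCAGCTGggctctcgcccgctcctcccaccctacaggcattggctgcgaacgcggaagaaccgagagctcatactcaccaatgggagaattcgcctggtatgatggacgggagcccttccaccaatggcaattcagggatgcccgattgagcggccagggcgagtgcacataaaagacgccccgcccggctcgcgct
Id3: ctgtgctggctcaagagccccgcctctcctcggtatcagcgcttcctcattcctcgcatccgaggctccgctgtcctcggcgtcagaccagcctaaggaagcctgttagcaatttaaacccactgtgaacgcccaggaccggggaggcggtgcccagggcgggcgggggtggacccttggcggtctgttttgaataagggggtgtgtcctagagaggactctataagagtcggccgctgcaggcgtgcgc
Id4: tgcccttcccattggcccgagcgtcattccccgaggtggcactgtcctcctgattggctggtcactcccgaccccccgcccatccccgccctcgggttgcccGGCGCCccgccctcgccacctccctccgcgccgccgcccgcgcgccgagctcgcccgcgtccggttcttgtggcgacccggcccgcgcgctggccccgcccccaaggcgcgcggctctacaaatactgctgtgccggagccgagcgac
Id2 held 1 E-box, starting 196 bases before the start site, and 1 GC-rich motif at 231 bases, and the matches did not overlap. Id3 held neither, and Id4 held 1 GC-rich motif at 148 bases. Of 32851 promoter windows of the same length, 66.2% held an E-box and 9.59% held GGCGCC. These are matches of letters, and binding was not measured.

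Neurod1, a helix-loop-helix factor of differentiating granule neurons, was counted in 31.1%, 34.5% and 38.4% of barcodes of at least 200 counts in tumours 1, 2 and 3. No E protein or ID gene passed the test between barcodes with and without Neurod1. The median depth was 373, 253 and 316 counts with Neurod1 and 345, 256 and 294 without, so the sets were of similar depth. The 7 granule neuron markers other than Neurod1 together stood at 2709, 1192 and 2052 CPM with Neurod1 and 1232, 1221 and 1116 CPM without, so they were higher with Neurod1 in tumours 1 and 3 and not in tumour 2. Of 3980 genes tested by edgeR's quasi-likelihood test with the tumour as a block, 74 passed at a Benjamini-Hochberg adjusted p of 0.05 (1.86%). Only 4 members reached the minimum of 50 counts for the test (Tcf4, Tcf12, Tcf3 and Id2), and 0 of these 4 passed, with edgeR or with DESeq2, or had an unadjusted p under 0.05. Their median log2 fold change was 0.21, beside -0.01 over all genes tested.

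Tcf4 had 1946, 1348 and 1527 CPM in barcodes with Neurod1 and 1493, 1517 and 1348 CPM in barcodes without it, in tumours 1, 2 and 3. It was higher with Neurod1 in tumours 1 and 3 and lower in tumour 2. The log2 fold change was 0.22 (SE 0.16, edgeR adjusted p = 0.716). Without tumour 2 it was 0.30 with an edgeR adjusted p of 0.0307, so the call for Tcf4 turned on the tumour with 51 barcodes with Neurod1. In the fit without tumour 2, 219 of 3815 genes passed, against 74 of 3980 with all 3 tumours, so calls rose over all genes. When each barcode was thinned to 200 counts before the sets were drawn, the value was -0.02 (adjusted p = 0.975).

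Id2 had 572, 0 and 358 CPM with Neurod1 and 353, 259 and 410 CPM without it. Its direction differed among tumours, since only tumour 1 was higher with Neurod1, and the fitted difference was 0.21 (SE 0.22, adjusted p = 0.848). In tumour 1 the 95% Poisson intervals of Id2 did not overlap, at 458 to 706 with Neurod1 and 291 to 426 without. Tcf12 had 250, 207 and 253 CPM with Neurod1 and 229, 0 and 194 CPM without it. Tcf12 was higher in 3 of 3 tumours, with a log2 fold change of 0.36 that did not pass (SE 0.27, edgeR adjusted p = 0.744). In tumour 2 this direction rests on 4 Tcf12 counts. Tcf3 had 138, 0 and 136 CPM with Neurod1 and 127, 0 and 173 CPM without it. Its log2 fold change was -0.10 with a 95% interval of -0.81 to 0.62, which leaves room for changes in either direction.

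**Figure D2:**
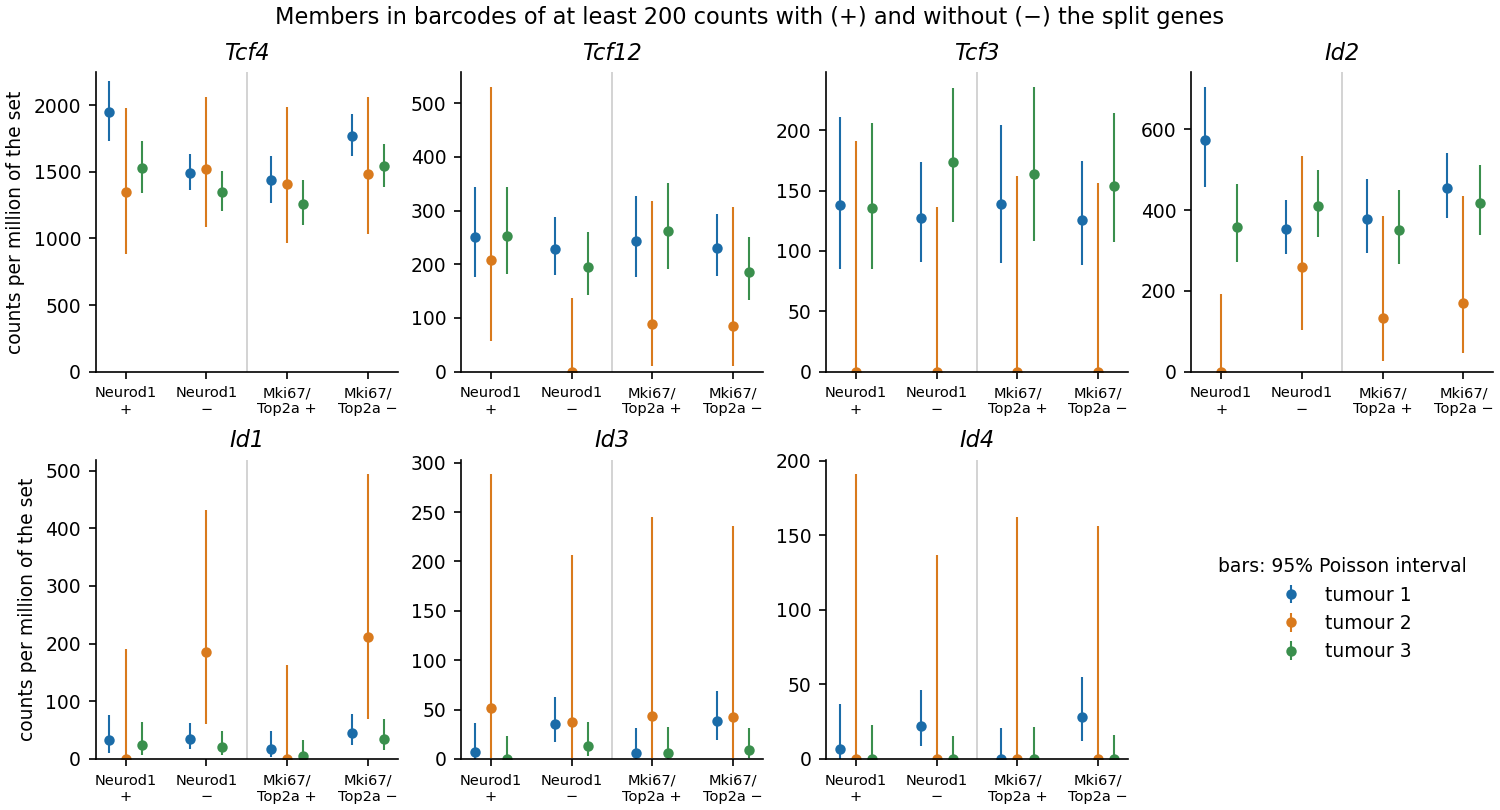
CPM of each set, per tumour, for the 7 genes in barcodes of at least 200 counts with (+) and without (−) Neurod1, and with and without Mki67 or Top2a; bars are 95% Poisson intervals, which cover counting error only. Tcf4 in tumour 1 lies at 1946 with and 1493 without Neurod1, and in all 3 tumours it lies lower with than without Mki67 or Top2a.

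The scarcer ID genes fell below the count minimum of the test. Over the 3 tumours, Id1 had 9 counts with Neurod1 and 21 without, a ratio of 0.74 per count of the set (95% interval 0.30 to 1.69). Id3 had 2 counts with Neurod1 and 15 without, a ratio of 0.23 (0.026 to 0.99). Id4 had 1 and 7 counts, a ratio of 0.25 (0.0055 to 1.93). These intervals treat the tumours as 1 pool and cover counting error only, so they are not a test over tumours. Id3 was lower with Neurod1 in tumours 1 and 3, at 6.58 against 35.0 CPM and 0 against 12.7 CPM. In tumour 2 Id3 had 1 count in each set, and the count with Neurod1 lay in the barcode of 3172 counts.

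Mki67, a marker of cycling cells, or Top2a, a topoisomerase of replicating and dividing cells, was counted in 32.4%, 39.2% and 35.6% of barcodes of at least 200 counts. Between barcodes with and without these mRNAs, 165 of 3979 genes passed (4.15%), and 0 of the 4 members tested did. Tcf4 was lower with Mki67 or Top2a in 3 of 3 tumours, and 1 of the 4 members, Tcf4, had an unadjusted p under 0.05. Over all genes tested, 454 of 3979 had an unadjusted p under 0.05, so such a value is common in this comparison. DESeq2 also called 0 of the 4, and the median of the 4 was -0.08, beside -0.02 over all genes. Median depth was higher in barcodes with these mRNAs, at 447, 275 and 359 counts against 318, 247 and 284.

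Tcf4 had 1435, 1408 and 1261 CPM with Mki67 or Top2a and 1771, 1484 and 1541 CPM without, in tumours 1, 2 and 3. The highest value with these mRNAs was 1435 and the lowest without was 1484, and how many of all genes separated in this way was not counted. Both values of tumour 2 together rest on 67 Tcf4 counts. The log2 fold change was -0.27 (SE 0.13), with an unadjusted p of 0.0381 and an edgeR adjusted p of 0.380. With each barcode thinned to 200 counts it was -0.24 (adjusted p = 0.769), and without barcodes that carried markers of other types it was -0.28 (adjusted p = 0.209). In barcodes of at least 500 counts, of which tumour 2 had 9, the value was 0.08 (adjusted p = 0.997).

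Id2 had 377, 132 and 350 CPM with Mki67 or Top2a and 455, 170 and 418 CPM without. It was lower in 3 of 3 tumours, of which tumour 2 had 7 Id2 counts over both sets. The log2 fold change of Id2 was -0.27 (SE 0.22, edgeR adjusted p = 0.781), with a 95% interval of -0.70 to 0.16 that spans 0. After thinning to 200 counts, which also redrew the sets, the value was 0.08 (SE 0.30). Tcf12 had 244, 88.0 and 263 CPM with and 231, 84.8 and 185 CPM without. Its log2 fold change was 0.27 with a 95% interval of -0.28 to 0.82. Tcf12 was higher in 3 of 3 tumours, although both values of tumour 2 together rest on 4 counts. Tcf3 had 139, 0 and 163 CPM with and 126, 0 and 154 CPM without, a log2 fold change of 0.11 (interval -0.61 to 0.82).

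Id1 was counted mainly outside the barcodes with Mki67 or Top2a. It had 3, 0 and 1 counts with them and 13, 5 and 8 without, in tumours 1, 2 and 3. That made 16.6, 0 and 5.84 CPM against 45.5, 212 and 35.2 CPM, so Id1 was lower with proliferation mRNA in each tumour. The pooled ratio was 0.22 (95% interval 0.056 to 0.64, counting error only), and Id1 was under the minimum for the test. All 5 counts of tumour 2 came from 1 barcode, and 4 of the 13 counts of tumour 1 came from 1 barcode of 2167 counts with astrocyte and endothelial markers. Id3 had 3 counts with and 14 without (ratio 0.31, interval 0.057 to 1.10), and Id4 had 0 and 8, all 8 in tumour 1. Astrocyte markers moved the same way in tumours 1 and 3, at 1419 against 2785 CPM and 1097 against 1242 CPM. Endothelial markers stood at 94.2 against 360 CPM in tumour 1. In tumours 2 and 3 the deepest barcode with Mki67 or Top2a, of 3172 and 4591 counts, carried astrocyte, endothelial and mural markers. The deepest barcode without them in tumour 3, of 2071 counts, carried endothelial and mural markers. The part of astrocyte and endothelial markers in the Id1, Id3 and Id4 counts was not tested in this split.

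Both splits together gave 4 sets. Among barcodes with Neurod1, Id2 had 706, 0 and 380 CPM in those without proliferation mRNA and 275, 0 and 324 CPM in those with it. Among barcodes without Neurod1, Id2 had 309, 273 and 449 CPM without and 413, 243 and 365 CPM with proliferation mRNA. Id2 in tumour 1 was thus highest in barcodes with Neurod1 and no proliferation mRNA, and this order was not seen in tumour 3. Tcf4 had its highest value in the same set in tumours 1 and 3, at 2061 and 1720 CPM, against 1346 CPM in tumour 2 from 12 counts. No Id1 or Id4 count fell in the 219 barcodes with both Neurod1 and proliferation mRNA, which hold 119449 counts and allow up to 25.1 CPM.

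**Figure D3:**
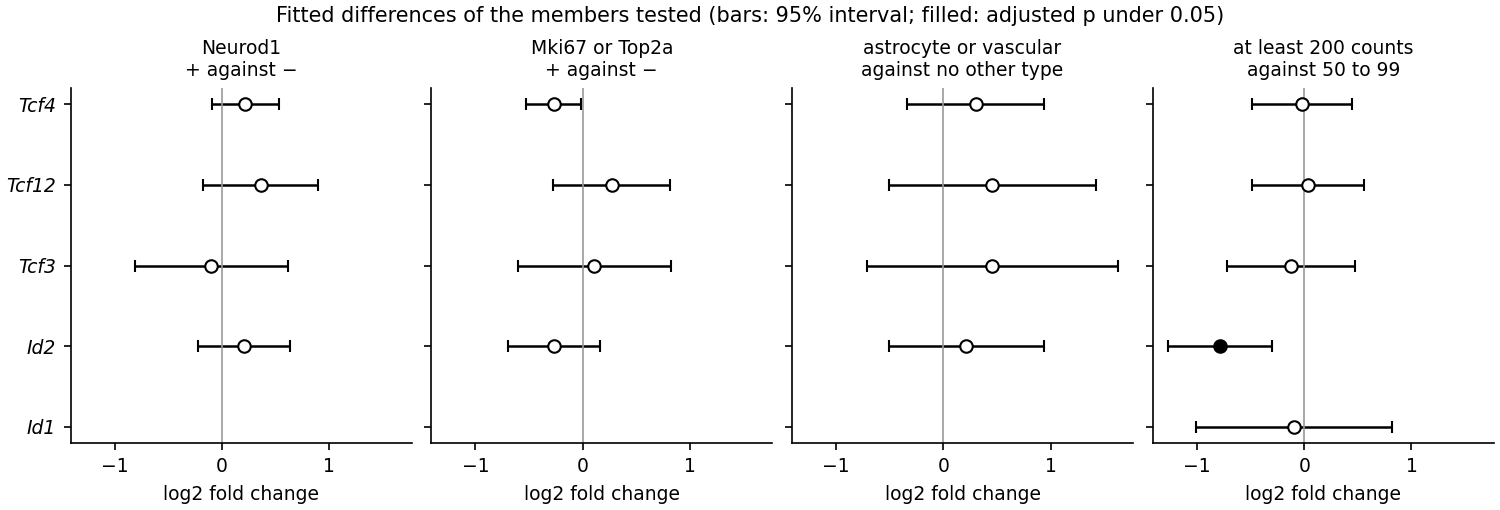
Fitted log2 fold changes (x axis) of the members with at least 50 counts in 4 comparisons, with 95% intervals; filled points passed an adjusted p of 0.05. Id2 between deep and shallow barcodes, at -0.78, is the single filled point, and the Tcf4 interval between proliferation sets ends at -0.01.

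Barcodes with astrocyte or vascular markers were compared with barcodes that carried no call for another type. A call needed at least 3 counts of at least 2 genes of a marker list, and vascular means endothelial or mural. Id3 and Id4 counts were concentrated in the called barcodes. The pooled levels of Tcf4 and Id2 in called barcodes were 1.07 (0.87 to 1.29) and 1.03 (0.68 to 1.52) times those of the others (95% interval, counting error only). The classes held 53, 3 and 22 called barcodes and 981, 137 and 1017 barcodes with no other type. Called barcodes were deeper, with medians of 735, 418 and 532 counts against 341, 248 and 299. The astrocyte list stood at 13139, 7771 and 4298 CPM in called barcodes and at 1139, 792 and 1031 CPM in the others. Progenitor markers were also present in called barcodes, at 3874, 2256 and 4539 CPM. Over the 3 tumours summed, Mki67 stood at 1627 CPM in called barcodes and 1204 in the others, and Top2a at 1351 and 1238. With barcodes of over 1000 counts left out, Mki67 stood at 657 against 1176 CPM and Top2a at 263 against 1224. How far called barcodes mix mRNA of several cells was not tested.

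Id3 had 10 counts among 68842 counts of the called barcodes and 5 among 812609 of the others, a ratio of 23.6 (95% interval 7.35 to 88.0, counting error only). The 10 counts lay in 6 barcodes, with 9, 1 and 0 counts in tumours 1, 2 and 3. Id4 had 6 counts against 1, a ratio of 70.8 (8.59 to 3258), and all 6 came from 6 barcodes of tumour 1. Id1 had 7 counts against 23, a ratio of 3.59 (1.30 to 8.65), with 6, 0 and 1 counts in the 3 tumours. Tumour 1 thus supplied 21 of these 23 counts of Id1, Id3 and Id4, and tumour 3 did not show the pattern for Id3 or Id4. With barcodes of over 1000 counts left out, Id3 had 3 counts against 5 (ratio 15.0, interval 2.34 to 77.3), Id4 had 6 against 0, and Id1 had 1 against 22 (ratio 1.14, interval 0.028 to 7.05). Without the deep barcodes the Id1 interval thus spanned 1. With marker calls made after thinning to 200 counts, the ratios were 82.5 (27.2 to 276) for Id3, 49.5 (9.22 to 266) for Id4 and 12.9 (4.30 to 32.6) for Id1. These rest on 6, 4 and 3 called barcodes with a count of Id3, Id4 and Id1. In the same thinned calls the ratio was 0.62 (0.36 to 0.99) for Tcf4 and 1.74 (0.89 to 3.07) for Id2, from 17 and 12 counts in the called barcodes.

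The markers divided further by type. In the 11 barcodes called vascular, Id3 had 6 counts and Id1 had 5, ratios of 61.9 (15.7 to 256) and 11.2 (3.33 to 30.1) to barcodes with no other type, and Id4 had 0 of 15763 counts. The Id3 counts lay in 3 of these barcodes and the Id1 counts in 2. A tumour 1 barcode of 2167 counts, with astrocyte and endothelial markers, held 4 of the Id1 and 2 of the Id3 counts. The vascular Id1 ratio therefore rests mainly on 1 barcode, which its counting interval does not cover. In the 72 called astrocyte, Id4 had 6 counts, Id3 had 7 and Id1 had 6. The 2 classes share barcodes that carry both calls. In the 38 barcodes called myeloid, Tcf4 had 13 counts, or 0.30 times its level in barcodes with no other type (0.16 to 0.52). Tcf4 stood there at 400, 304 and 555 CPM against 1708, 1452 and 1389 CPM, from 4, 1 and 8 counts, so the value of tumour 2 rests on 1 count. Myeloid barcodes with Tcf4 after thinning were 11.8%, 20.0% and 18.8% of the class, against 25.5%, 21.2% and 23.2% of barcodes with no other type. Myeloid Tcf12, Tcf3 and Id2 levels were 1.01, 1.07 and 0.83 times those of barcodes with no other type, with intervals that span 1.

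**Figure D4:**
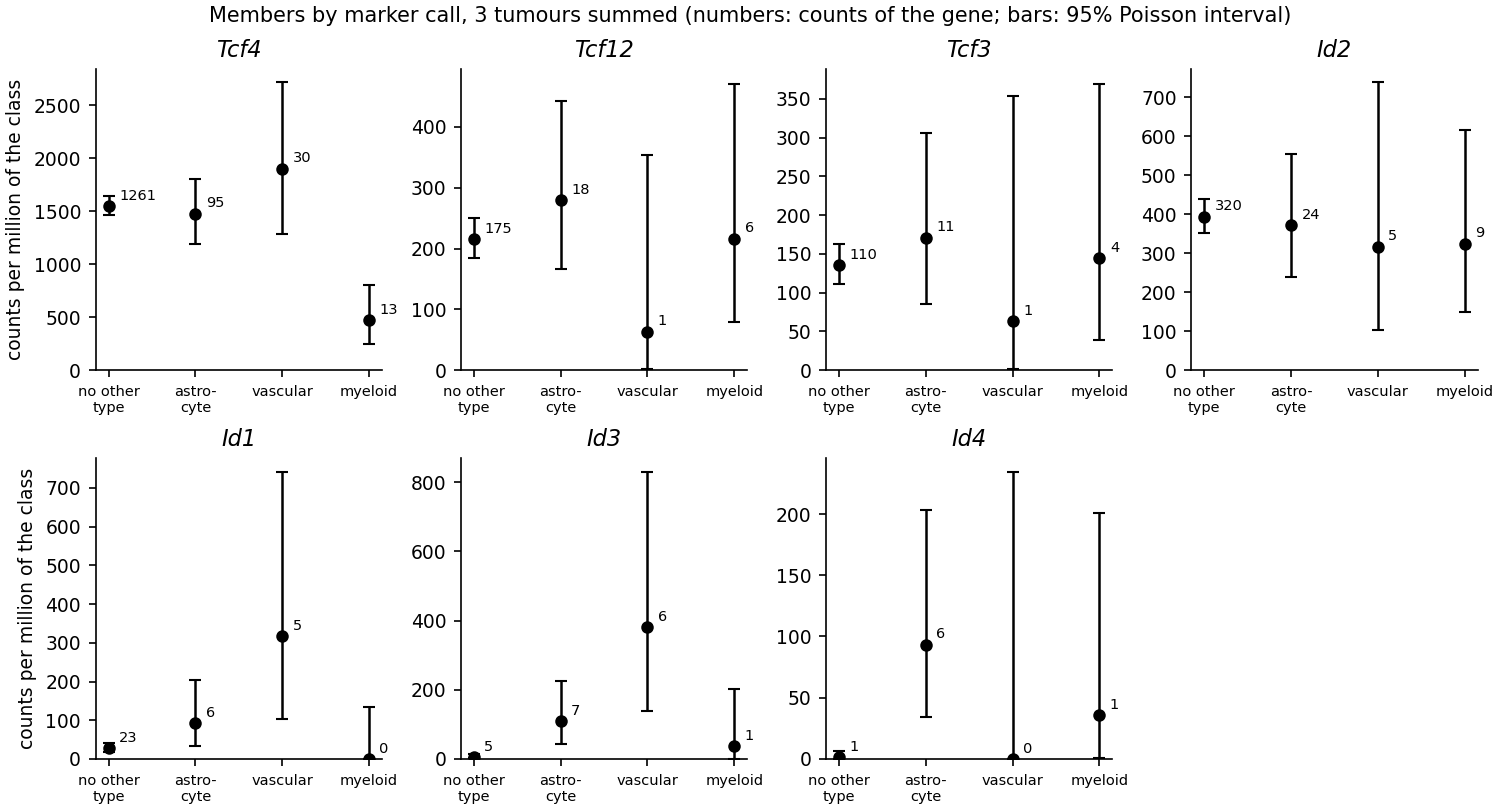
CPM of each class of barcodes, 3 tumours summed, for the 7 genes; the numbers give the counts of the gene, and bars are 95% Poisson intervals. Id3 and Id1 are highest in the vascular class at 381 and 317, where their counts lie in 3 and 2 barcodes. Id4 is at 93.3 in the astrocyte class and Tcf4 is lowest in the myeloid class at 469.

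Tumours 1 and 3 had at least 5 called barcodes each and entered the fit, and tumour 2 was left out. In the fit 20 of 3708 genes passed (0.539%), all higher in called barcodes, and 0 of the 4 members tested passed, with edgeR or with DESeq2, or had an unadjusted p under 0.05. Tcf4 had 1269 and 2366 CPM in called barcodes of tumours 1 and 3 and 1708 and 1389 CPM in the others, and the tumours went in opposite directions. Its log2 fold change was 0.30 (SE 0.32, adjusted p = 0.975). Of the 49 Tcf4 counts in called barcodes of tumour 3, 17 came from 1 barcode of 2071 counts with endothelial and mural markers. With a gene minimum of 10 counts the value for Tcf4 was -0.15, where the median of the genes then tested was -0.47 against -0.06, and with RLE scaling it was 0.32. On simulated counts this fit recovered 52 of 82 genes changed 2 on the log2 scale and 7 of 89 changed 1. The simulation gave each gene the same change in both tumours, so recovery in the real data may be lower.

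Id2 was lower in deep than in shallow barcodes, a comparison added after the data had been seen. Barcodes of at least 200 counts were set against the 5887, 1542 and 4276 barcodes of 50 to 99 counts of the same tumours. Which barcodes are cells is not known, least of all among the shallow ones. The values therefore compare barcodes, and whether they hold between cells was not tested. Id2 stood at 702, 415 and 574 CPM in the shallow barcodes and 425, 151 and 389 CPM in the deep ones, in tumours 1, 2 and 3. It was lower in the deep barcodes in 3 of 3 tumours. Between these limits, at 100 to under 200 counts, Id2 stood at 557, 368 and 471 CPM, so the values went down with depth in each tumour. The log2 fold change was -0.78 (SE 0.25, edgeR adjusted p = 0.0140). In this comparison 1184 of 6426 genes passed (18.4%), 715 of them lower (11.1%), and Id2 was 1 of 5 members tested, so a call here is common among all genes. Without tumours 1, 2 and 3 in turn the adjusted p was 0.196, 0.0393 and 0.246. Without barcodes carrying markers of other types the value was -0.74 (adjusted p = 0.0168).

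The E proteins did not share this pattern. Tcf4 had 1384, 1712 and 1462 CPM in shallow and 1641, 1447 and 1421 CPM in deep barcodes, a log2 fold change of -0.02 with a 95% interval of -0.49 to 0.44. Tcf12 differed by 0.04 (interval -0.49 to 0.56) and Tcf3 by -0.12 (interval -0.72 to 0.47). Id1, which reached the minimum in this comparison with 64 counts, differed by -0.09 (interval -1.0 to 0.82). None of these 4 passed, and whether Id2 differed from them was not tested.

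**Figure D5:**
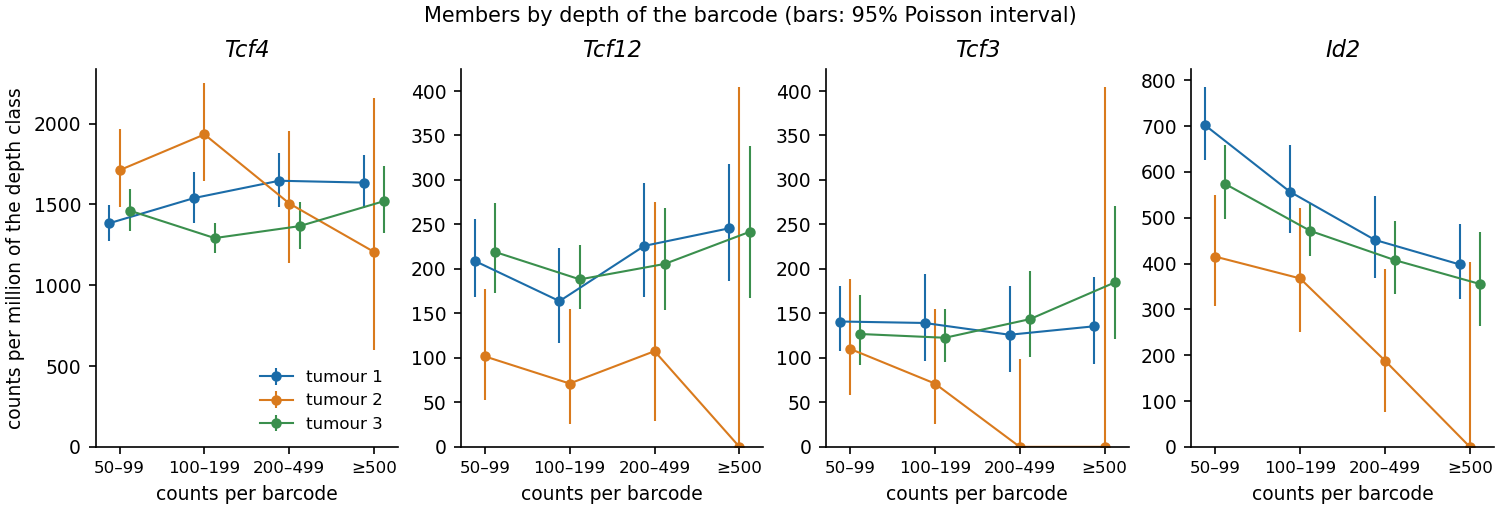
CPM (y axis) of Tcf4, Tcf12, Tcf3 and Id2 in barcodes grouped by their counts (x axis), per tumour, with 95% Poisson intervals. Id2 goes down from 702, 415 and 574 in barcodes of 50 to 99 counts to 398, 0 and 355 in those of 500 and over, where tumour 2 has 9 barcodes.

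Genes that work with E proteins were followed from 4 lists, in which DESeq2 called 0 genes in each comparison. Of 15 helix-loop-helix partners, 4 were tested between the Neurod1 sets and 1 passed, Nhlh1, a factor of young neurons. Nhlh1 had 441, 207 and 383 CPM with Neurod1 and 220, 555 and 178 CPM without. It was higher in tumours 1 and 3 and lower in tumour 2, with a log2 fold change of 0.82 (edgeR adjusted p = 0.0317), and passed in 5 of 16 alternatives. Between the proliferation sets Nhlh1 was again the 1 of 4 that passed. It had 200, 308 and 146 CPM with Mki67 or Top2a and 350, 509 and 348 CPM without. Nhlh1 fell by 0.98 on the log2 scale (adjusted p = 0.00527), lower in 3 of 3 tumours, and passed in 9 of 16 alternatives. With 1 tumour left out, Nhlh1 passed in both comparisons only where that was tumour 2. Nhlh2, its relative, differed by 0.60 and -0.45 in the 2 comparisons, and Atoh1, the granule progenitor factor, by -0.90 and 0.41, and none of these passed. The list's medians, each over the 4 genes tested, were 0.52 and -0.33 where those of all genes were -0.01 and -0.02. An unadjusted edgeR p under 0.05 was found for 3 and 1 of the 4. Over all genes tested the numbers were 419 of 3980 and 454 of 3979.

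Of 16 E protein cofactors, 8 were tested in both splits, 0 passed between the Neurod1 sets (1 at an unadjusted p under 0.05) and 1 passed between the proliferation sets. That 1 was Ldb1, an adaptor that joins LIM proteins to helix-loop-helix complexes. Ldb1 had 4, 2 and 7 counts with Mki67 or Top2a and 28, 5 and 25 without, and fell by 1.65 on the log2 scale (adjusted p = 0.0478). It passed in 4 of the 11 alternatives in which it had enough counts. The 3 cofactors with most counts did not pass in either split: Zeb1 and Zeb2, repressors that also bind E-boxes, differed by -0.05 and 0.15 between the Neurod1 sets and by -0.08 and 0.04 between the proliferation sets. Cbfa2t3, a corepressor that E proteins recruit, differed by -0.36 and -0.15.

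Of 6 Hes and Hey repressors, several of them Notch targets, 3 were tested and 0 passed in either split (1 and 0 at an unadjusted p under 0.05). Hes1 differed by -0.91 between the Neurod1 sets (adjusted p = 0.111), Hes6 by -0.59 and Hey1 by 0.05. Hes1 was higher in barcodes with astrocyte or vascular markers, at 340 and 869 CPM against 174 and 175 CPM in tumours 1 and 3. Its log2 fold change there was 1.78 (adjusted p = 0.0170), and with barcodes of over 1000 counts left out it was 0.57 (adjusted p = 0.999). Of 21 BMP and SMAD genes, the pathway that acts on ID genes, 2 had enough counts in these 3 comparisons, the receptors Acvr2a and Bmpr2, and 0 passed or had an unadjusted p under 0.05. Bmpr1a, a BMP receptor and the third by counts, had 47 counts in barcodes of at least 200 counts. Between deep and shallow barcodes, Hes6 fell by 1.07 (adjusted p = 0.0105) and Olig1, a factor of the oligodendrocyte lineage, fell by 1.46 (adjusted p = 0.0395), with the Hes6 call lost without tumour 1 or 3, and 0 of 12 cofactors and 0 of 6 BMP and SMAD genes passed.

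Likeness was measured by Pearson's r of log2 CPM over 8 sums, the 4 sets of both splits in tumours 1 and 3, among 733 genes with at least 200 counts. Before r was taken, 1 count was added to each sum and each gene was centred within its tumour. The sums share tumours and depth, and the genes named have the highest r of 733, so r is a description. How high r would be without any relation was not tested. The genes most like Tcf4 were Cald1 (0.96), Fez1 (0.96) and Smpd3 (0.95). Those most like Tcf12 were Smarca4 (0.94), Rsf1 (0.92) and Nvl (0.89). Tcf3 was most like Ash1l (0.90), Parp1 (0.87) and Anp32e (0.77). Id2 was most like Zc3h15 (0.94), Gpbp1 (0.87) and Malat1 (0.83).

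Co-detection of members in single barcodes was read at 200 thinned counts. In barcodes with an Id2 count, Tcf4 was counted in 22.6% of 93 in tumour 1 and 31.4% of 70 in tumour 3, against 25.6% and 22.5% of barcodes without Id2. Tumour 2 had 3 such barcodes. The direction differed between the tumours, so neither joint nor exclusive detection of the main E protein and the main ID gene was resolved at this depth.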

How the data were processed

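The authors deposited 1 table per tumour of raw counts, each count 1 unique molecular identifier (UMI), by gene and barcode. Cells were freed with papain and libraries made by the Drop-seq protocol, per the labels' protocols. The tools named are STAR and Cell Ranger and the build named is GRCh38, without versions or roles, per the submitters' processing notes. Of 19744 symbols, 18566 (94.0%) matched mouse gene names, so coordinates come from RefSeq (GRCm38.p6) and not from the tables. Strand use in counting is not given in the sources used here. The members, lists and comparisons were chosen with earlier results of these data known.

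Counts were summed per tumour over barcodes of at least 200 counts with and without at least 1 count of the split genes. Genes with at least 50 counts over the sums were fitted with edgeR 4.0.16 (R 4.3.3; TMM scaling, robust quasi-likelihood, tumour as block), and p-values were adjusted by Benjamini-Hochberg over all genes tested. Split and marker genes were left out of the calls of their own comparison. The replicate is the tumour, of which there are 3, and the series' design text speaks of replicate mice. Named genes were the members, list genes that were called or had the 3 highest counts, and the 3 genes most like each member. Scaling, DESeq2 1.42.0, filters, depth limits, thinning, the block and leaving out each tumour were tried as alternatives. Comparisons of depth classes and of thinned marker calls were added after seeing the data. Doublets were not called, but barcodes of over 1000 counts and those with other-type markers were left out in alternatives. On simulated counts the fits recovered 45 of 95, 45 of 97 and 52 of 99 genes changed 1 on the log2 scale (Neurod1, proliferation and depth). The simulated counts had the same small spread beyond counting error for every gene, and the same change in every tumour. Recovery in the real data may therefore be lower. Sums and figures used Python 3.11.15 and pandas 2.3.3.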

Additional observations from a re-analysis of the deposited data

How the results depend on the processing

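Between deep and shallow barcodes (alternatives added after seeing the data) Id2 stayed lower in 12 of 12 alternatives, at -0.98 to -0.42, and lost its call in 6. The members called there were 0 with DESeq2, 0 with a deep set of at least 500 counts, 0 without the replicate block and 0 against barcodes of 100 to under 200 counts, and 0 to 1 when a tumour was left out. Between the Neurod1 sets, 0 to 1 members were called when a tumour was left out, and the 1 was Tcf4 without tumour 2. No member was called in the other settings run between the Neurod1 sets, or in any setting run between the proliferation or marker sets. Over all comparisons 186 of 221 alternative member values kept their direction and side of the threshold.

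Counts of genes called moved more. Between the Neurod1 sets (74) they were 0 with DESeq2, 0 without the replicate block, 49 in barcodes of at least 100 counts and 8 in those of at least 500, and 1 to 219 with a tumour left out. Between the proliferation sets (165) they were 28 with DESeq2, 53 without the replicate block, 34 at 500 counts, 43 after thinning to 200 counts, 66 in barcodes without Neurod1, and 4 to 177 with a tumour left out. Between the marker sets (20) they were 8 with DESeq2, 13 at 500 counts, 2 in barcodes of at most 1000 counts and 40 with a gene minimum of 10. Between deep and shallow barcodes (1184) they were 130 with DESeq2, 128 without the replicate block, 125 with the deep set at 500 counts, 494 against 100 to under 200 counts, and 54 to 1646 with a tumour left out. The causes were not tested.

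Member values that changed sign, none of which had passed, were as follows. Between the Neurod1 sets, Id2 was -0.23 with DESeq2, -0.045 at 500 counts and -0.58 to 0.31 with a tumour left out. Tcf12 was -0.17 and Tcf4 -0.022 after thinning. Tcf3 was 0.047 at no more than 10% mitochondrial counts, 0.27 at 500 counts and -0.36 to 0.16 with a tumour left out. Between the proliferation sets, Id2 was 0.085 after thinning and 0.053 in barcodes without Neurod1, Tcf3 was -0.024 at no more than 1000 counts and Tcf4 0.081 at 500 counts. Between the marker sets, Id2 and Tcf4 were -0.57 and -0.20 at 100 counts and -0.24 and -0.15 with a gene minimum of 10, Tcf12 was -0.0076 at no more than 10% mitochondrial counts, and at no more than 1000 counts Tcf3 was -1.06 and Tcf4 -0.029. By depth, Id1 was 0.063 with DESeq2 and 0.46 against 100 to under 200 counts. Tcf12 was -0.0056 with a gene minimum of 10 and -0.027 to 0.12 with a tumour left out. Tcf3 was 0.13 with the deep set at 500 counts, 0.061 against 100 to under 200 counts and -0.59 to 0.088 with a tumour left out. Tcf4 was -0.094 to 0.095 with a tumour left out.

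In barcodes of at least 200 counts the mean of the 3 tumours was 322 CPM for Id2 and 55.0 CPM for Id1, against 461 and 34.0 in the totals. For Id1 the rise came mainly from tumour 2, at 108 CPM from 5 counts in 1 barcode. Tumours 1 and 3 stood at 34.3 and 22.6 CPM, against 33.0 and 28.7 in the totals. Leaving out mitochondrial counts moved no member by more than its SD. Depth limits Id1, Id3 and Id4, which had 30, 17 and 8 counts in these barcodes.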
